A study of Mus musculus with 4 samples.

Results

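The histamine genes comprise the receptors Hrh1, Hrh2, Hrh3 and Hrh4, the histamine-forming enzyme gene Hdc and the histamine-inactivating enzyme gene Hnmt. They were taken from the deposited table by gene name, and each of the 6 names matched 1 of its 56035 gene rows. RNA was measured in the trigeminal ganglion, which holds the cell bodies of the sensory neurons of the face together with their glia. One group of 2 libraries came from male C57BL/6 mice aged 8 weeks that carried the K823R allele of Trpv1, which replaces a lysine codon by an arginine codon. The genotype label calls these mice transgenic and the protocol calls them a knock-in. The other group of 2 libraries came from wild-type (WT) littermate males of the same strain and age. The question stated by the series concerns TRPV1 SUMOylation, itch and the H1 receptor, and the comparison here is K823R against WT.

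Histamine is made from histidine by histidine decarboxylase, the product of Hdc, chiefly in mast cells, basophils, gastric enterochromaffin-like cells and a small group of hypothalamic neurons. It acts on G-protein-coupled receptors: the H1 receptor couples to Gq and phospholipase C, the H2 receptor to Gs and adenylyl cyclase, and the H3 and H4 receptors to Gi/o. In itch-sensing neurons, H1 receptor signalling through phospholipase C is known to engage the cation channel TRPV1. Histamine is inactivated inside cells by histamine N-methyltransferase, the product of Hnmt, and outside cells by diamine oxidase, the product of Aoc1.

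The values are TPM, an abundance per unit of gene length scaled to the same total in each library. Depth is therefore unknown for every library. Each library listed between 21838 and 22119 genes above 0. WT replicate 1 stood apart for markers of oligodendrocytes and astrocytes, which summed to 320.8 and 378.8 TPM in the K823R libraries, against 55.3 TPM in WT replicate 1 and 264.7 TPM in WT replicate 2. The 14 sensory neuron markers summed to 17302 and 16649 TPM in K823R and to 17899 and 15523 TPM in WT. The labels do not say which animals stand behind each library, so p-values measure only the spread between these libraries, which may be technical. In bulk tissue, fewer cells of a type and less RNA per cell cannot be told apart.

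In GRCm38 (GENCODE M21), 3 of the 6 genes lie on chromosome 2, all on the minus strand: Hnmt from 24002910 to 24049394, Hdc from 126593667 to 126619299 and Hrh3 from 180099465 to 180104488. The plus strand holds Hrh1 on chromosome 6 (114397936 to 114483296) and Hrh2 on chromosome 13 (54192129 to 54236180). The start regions of these genes differ in base composition, and 4 are shown here because they span the range from CG-poor enzyme genes to a CG-rich receptor gene. The windows are RefSeq's on GRCm38.p6, from 250 bases before to 50 bases after a transcript start, and are written 5′ to 3′ on the gene's own strand. Capitals mark GGGCGG or its reverse complement CCGCCC, the letters of the GC box, of which neighbouring copies can overlap. The windows are chr6:114397686-114397985 for Hrh1 (plus strand), chr2:180104358-180104657 for Hrh3, chr2:126618629-126618928 for Hdc and chr2:24049330-24049629 for Hnmt (minus strand).
Hrh1: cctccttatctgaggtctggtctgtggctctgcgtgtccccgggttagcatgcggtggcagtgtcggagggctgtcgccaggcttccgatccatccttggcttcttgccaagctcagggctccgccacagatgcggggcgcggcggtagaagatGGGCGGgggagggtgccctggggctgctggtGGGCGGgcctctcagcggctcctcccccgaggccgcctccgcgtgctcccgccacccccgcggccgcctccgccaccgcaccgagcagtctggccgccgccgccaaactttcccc
Hrh3: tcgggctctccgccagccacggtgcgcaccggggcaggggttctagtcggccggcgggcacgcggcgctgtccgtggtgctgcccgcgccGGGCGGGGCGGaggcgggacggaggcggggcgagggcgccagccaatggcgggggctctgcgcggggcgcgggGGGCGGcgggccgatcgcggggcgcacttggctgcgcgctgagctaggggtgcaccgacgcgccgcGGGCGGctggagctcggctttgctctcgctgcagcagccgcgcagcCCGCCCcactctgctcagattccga
Hdc: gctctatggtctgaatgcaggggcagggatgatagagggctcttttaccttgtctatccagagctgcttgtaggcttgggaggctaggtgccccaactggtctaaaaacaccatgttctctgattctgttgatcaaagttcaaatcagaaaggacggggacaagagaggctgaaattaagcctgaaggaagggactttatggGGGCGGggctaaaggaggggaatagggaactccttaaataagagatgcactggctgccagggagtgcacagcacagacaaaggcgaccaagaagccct
Hnmt: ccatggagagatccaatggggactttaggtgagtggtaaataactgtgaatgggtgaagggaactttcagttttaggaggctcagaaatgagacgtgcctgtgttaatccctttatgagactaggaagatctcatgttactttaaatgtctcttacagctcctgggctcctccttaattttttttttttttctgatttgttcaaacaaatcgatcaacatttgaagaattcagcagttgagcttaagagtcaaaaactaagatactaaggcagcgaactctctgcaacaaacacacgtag

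The Hrh3 window held 47 CG dinucleotides and 5 GC boxes, and 98.6% of the 32851 RefSeq windows held fewer CG dinucleotides. The Hrh1 window held 28 CG dinucleotides and 2 GC boxes. The Hdc window held 3 CG dinucleotides and 1 GC box, and the Hnmt window held 4 and 0. The median over all windows was 7 CG dinucleotides, and 35.7% of windows held at least 1 GC box. RefSeq gives Hrh1 4 such windows with 4 to 39 CG dinucleotides, and Hrh2 2 windows with 15 and 16. A value per gene sums over these starts, so which start was in use was not analysed here. The CG-poor Hnmt window belongs to the most abundant of these transcripts, and the most CG-rich window belongs to the second, Hrh3.

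The ganglion carried far more transcript for histamine inactivation than for histamine synthesis, and among the receptors Hrh3 was the most abundant. The order of levels, in TPM, was Hnmt, Hrh3, Hrh1, Hrh2, Hdc and Hrh4 in all 4 libraries. The ranges over the 4 libraries were 19.55 to 22.95 TPM for Hnmt, 3.45 to 5.07 TPM for Hrh3 and 1.31 to 2.00 TPM for Hrh1. They were 0.87 to 1.23 TPM for Hrh2 and 0.47 to 0.66 TPM for Hdc. No neighbours in this order had ranges that overlapped. TPM depends on the length assigned to a gene: the table gives 994 bases for Hnmt, whose annotated transcripts run from 994 to 1656 bases, and 1401 bases for Hrh3, whose transcripts run from 906 to 2706 bases. By mean level Hnmt stood above 59.0% of the 15390 genes tested, Hrh3 above 22.6%, Hrh1 above 8.19% and Hrh2 above 0.598%.

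**Figure D1:**
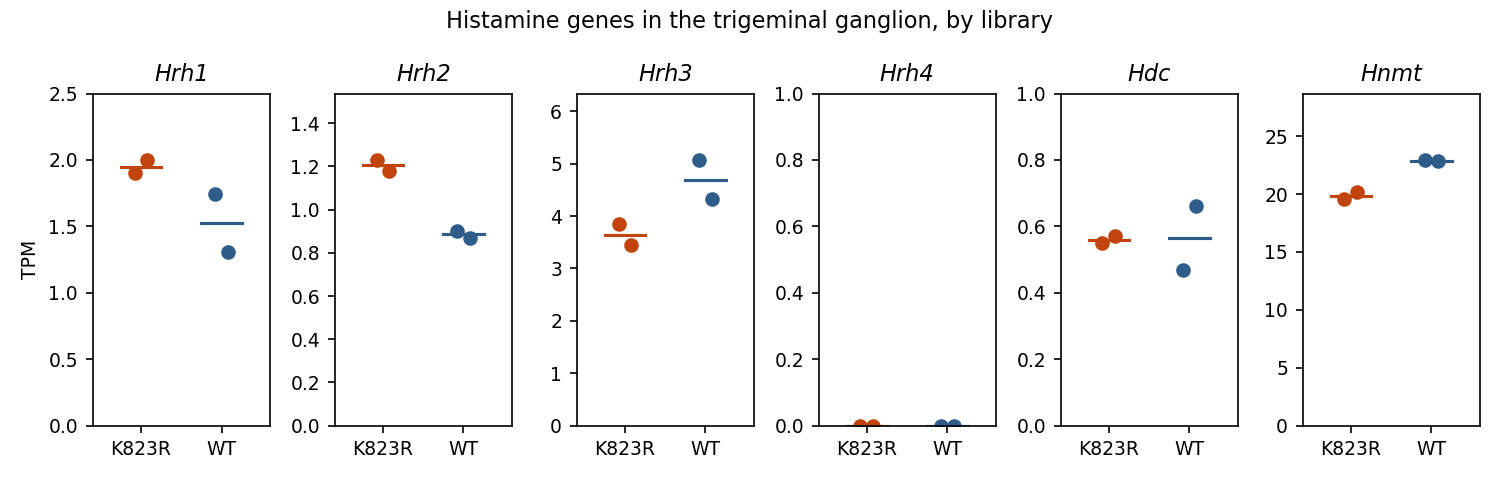
TPM (vertical axes, each from 0 and on its own scale) of the histamine genes in each library; points are single libraries, K823R in orange and WT in blue, and short lines are group means (n = 2 each). Hrh1 and Hrh2 sit higher in both K823R libraries and Hrh3 and Hnmt lower, Hdc overlaps, and Hrh4 is listed at 0 in all 4 libraries.

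The H1 receptor gene Hrh1 had 1.90 and 2.00 TPM in the K823R libraries, against 1.74 and 1.31 TPM in the WT libraries. The groups did not overlap, and the K823R libraries were the higher ones, with the lowest value in WT replicate 2. The log2(TPM + 1) difference, K823R minus WT, was 0.23 (standard error, SE, 0.22; 95% interval -0.35 to 0.81; limma adjusted p = 0.932). The difference did not pass the test, and the interval spans values on both sides of 0. Leaving out WT replicate 2 gave 0.11, leaving out WT replicate 1 gave 0.35, and so did adding 0.1 TPM in place of 1 TPM before the logarithm. Trpv1, which carries the allele, had 40.92 and 35.01 TPM in K823R, against 39.17 and 30.62 TPM in WT (log2 difference 0.12, SE 0.15, limma adjusted p = 0.938). Trpv1 thus exceeded Hrh1 by 21.5-fold and 17.5-fold in the K823R libraries and by 22.5-fold and 23.4-fold in the WT libraries, as ratios of TPM.

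The H2 receptor gene Hrh2 had 1.23 and 1.18 TPM in the K823R libraries, against 0.90 and 0.87 TPM in the WT libraries. The groups did not overlap, and the replicates lay closer together than for Hrh1. Its mean of 1.05 TPM over the 4 libraries passed the filter of 1 TPM only through the K823R libraries. The log2 difference was 0.23 (SE 0.25, 95% interval -0.43 to 0.89, limma adjusted p = 0.935), and 0.41 with a pseudocount of 0.1 TPM. The SE exceeds the replicate spread because limma draws the variance of a gene towards that of other genes at its level. An annotated antisense gene, Gm16578, shares exon bases with Hrh2 and was listed at 0 in all 4 libraries.

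Hrh3, whose product is the presynaptic receptor known from brain and autonomic neurons to restrain transmitter release, had its values in the opposite direction. It had 3.84 and 3.45 TPM in the K823R libraries, against 5.07 and 4.32 TPM in the WT libraries. Both K823R libraries lay below both WT libraries, and the highest value was in WT replicate 1. The log2 difference was -0.29 (SE 0.16, 95% interval -0.71 to 0.12, limma adjusted p = 0.918), which did not pass the test. It was -0.20 without WT replicate 1 and -0.39 without WT replicate 2. The antisense gene Gm17180, which shares exon bases with Hrh3, was listed at 0 in all 4 libraries. The H4 receptor gene Hrh4, known mainly from blood-derived cells, was listed at 0 in all 4 libraries and has no fold change. It lies on chromosome 18.

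**Figure D2:**
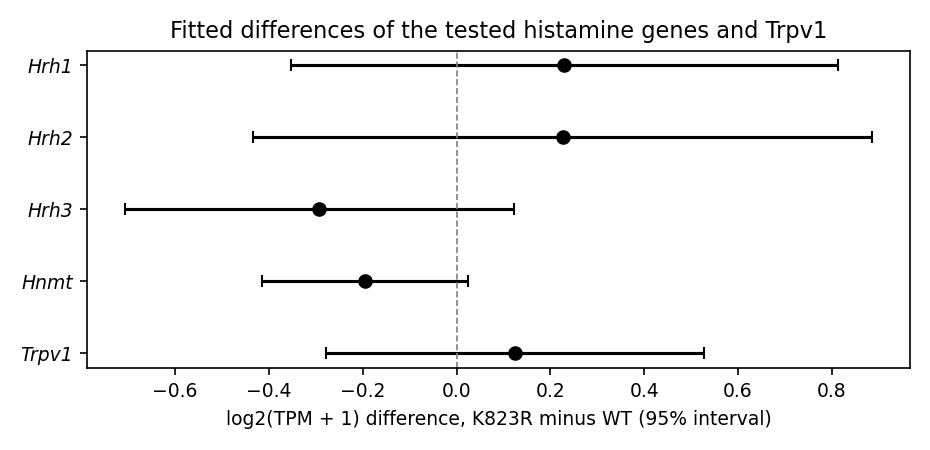
Differences in log2(TPM + 1), K823R minus WT (horizontal axis), for the histamine genes tested and Trpv1; points are limma estimates from 2 libraries per group and bars are 95% intervals. The intervals of all 5 genes include 0, and that of Hnmt is the narrowest, from -0.42 to 0.024.

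Hnmt, the methyltransferase that inactivates histamine inside cells, had 19.55 and 20.18 TPM in the K823R libraries, against 22.95 and 22.83 TPM in the WT libraries. The groups did not overlap, and replicates of a group differed by less than the groups did. The means were 19.9 ± 0.446 TPM in K823R and 22.9 ± 0.0849 TPM in WT (SD, n = 2 each), a ratio of 0.868. The log2 difference was -0.20 (SE 0.084, 95% interval -0.42 to 0.024), with an unadjusted p of 0.0705 and an adjusted p of 0.918 in limma, so it did not pass. Its unadjusted p ranked 1088 of 15390 genes, against 2004 for Hrh3, 5802 for Hrh1 and 6748 for Hrh2. The difference stayed between -0.23 and -0.17 under all 12 alternative settings (limma adjusted p 0.666 to 1).

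Hdc, the enzyme gene for histamine synthesis, had 0.55 and 0.57 TPM in the K823R libraries, against 0.47 and 0.66 TPM in the WT libraries. The WT libraries enclosed both K823R values. The means were 0.560 ± 0.0141 TPM in K823R and 0.565 ± 0.134 TPM in WT (SD, n = 2 each), and the gene fell below the filter and was not tested. The ratio of Hnmt to Hdc TPM was 35.5 and 35.4 in the K823R libraries, against 48.8 and 34.6 in the WT libraries, which overlap.

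Of the 6 histamine genes 4 were tested, and 0 passed at an adjusted p below 0.05 or had an unadjusted p below 0.05 in limma. Across all 15390 genes tested, 1 passed (0.00650%) and 732 had an unadjusted p below 0.05 (4.76%). All 4 had groups that did not overlap, as did 34.0% of all genes tested, and Hrh2 entered the test only through its K823R values. They split evenly: Hrh1 and Hrh2 were higher in both K823R libraries, as were 19.4% of all genes, and Hrh3 and Hnmt were lower in both, as were 14.6%. The median log2 difference was 0.015 over these 4 genes and 0.026 over all genes tested.

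The makeup of the receptor transcripts differed between the libraries of the genotypes, with larger shares for Hrh1 and Hrh2 and a smaller one for Hrh3 in K823R. This measure was chosen after the values were seen. The summed TPM of the receptor genes was 6.97 and 6.63 in the K823R libraries, against 7.71 and 6.50 in the WT libraries, which overlap. Hrh1 made up 27.3% and 30.2% of that sum in the K823R libraries, against 22.6% and 20.2% in the WT libraries. Hrh2 made up 17.6% and 17.8% in the K823R libraries, against 11.7% and 13.4% in the WT libraries. Hrh3 made up 55.1% and 52.0% in the K823R libraries, against 65.8% and 66.5% in the WT libraries. Thus Hrh3 exceeded Hrh1 by 2.02-fold and 1.73-fold in the K823R libraries and by 2.91-fold and 3.30-fold in the WT libraries. Hrh3 held more than any other receptor in every library. The ratio of Hrh1 to Hrh2 was 1.54 and 1.69 in K823R and 1.93 and 1.51 in WT, with overlap. An exact two-sided permutation test gave p = 0.333 for the share of each of Hrh1, Hrh2 and Hrh3. That is the lowest p that 2 libraries against 2 can give, so the test cannot decide whether the shares differ.

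**Figure D3:**
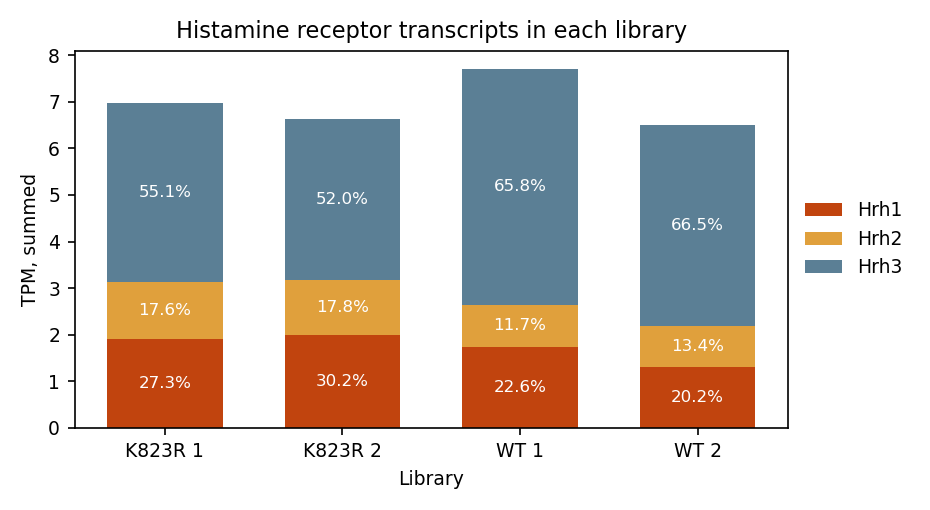
Summed TPM of the histamine receptor genes (vertical axis) in each library, K823R left and WT right, with the percent of the sum held by each gene printed in its block; Hrh4 is 0 throughout. Hrh3 holds 52.0% and 55.1% in the K823R libraries and 65.8% and 66.5% in the WT libraries, at sums of 6.50 to 7.71 TPM.

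Beyond Hnmt, the routes of histamine breakdown, storage and transport were represented by 11 genes, of which 7 were tested, 6 were higher and 1 was lower in K823R. None passed the test or had an unadjusted p below 0.05 in limma. The median log2 difference was 0.17, and over all genes tested it was 0.026, with 57.4% of them higher in K823R. Aoc1, the gene for diamine oxidase, was listed at 0 in all 4 libraries. Aldh2, a mitochondrial aldehyde dehydrogenase, had 251.5 and 258.8 TPM in K823R, against 220.9 and 233.8 TPM in WT (log2 difference 0.17, SE 0.069). Aldh7a1, another aldehyde dehydrogenase, had 61.40 and 57.45 TPM in K823R, against 51.09 and 52.43 TPM in WT (log2 difference 0.20, SE 0.078). Maob, a monoamine oxidase that acts on methylated histamine, had 2.38 and 3.44 TPM in K823R, against 1.95 and 2.06 TPM in WT (log2 difference 0.37, SE 0.22). The groups did not overlap for these 3 of the 7 tested genes, as for 34.0% of all genes tested. Limma gave each of the 3 an adjusted p of 0.918. Slc18a2, the vesicular monoamine transporter that loads histamine into vesicles, had 3.62 and 3.04 TPM in K823R and 3.06 and 2.71 TPM in WT, which overlap. Slc29a4, a membrane transporter of monoamines, ran from 10.73 to 14.79 TPM with overlap, and the cation transporters Slc22a2 and Slc22a3 stayed below 1 TPM in every library. The list's median was 0.09 without WT replicate 2.

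Genes of histidine supply and of other uses of histidine held no called gene either. Of 16 genes 10 were tested, 7 were higher and 3 lower in K823R, 0 passed or had an unadjusted p below 0.05 in limma, and the median log2 difference was 0.10. Slc7a5, a subunit of the large neutral amino acid transporter that carries histidine, had 48.54 and 47.04 TPM in K823R, against 44.96 and 41.77 TPM in WT. Slc38a3, a glutamine and histidine transporter, had 4.01 and 2.83 TPM in K823R, against 0.56 and 2.54 TPM in WT. Slc15a4, an endolysosomal histidine and peptide transporter, had 13.89 and 12.76 TPM in K823R, against 53.39 and 16.23 TPM in WT. For Slc38a3 and Slc15a4 WT replicate 1 was the library farthest from the rest, and limma gave all 3 genes an adjusted p of 0.918. Hal, the first enzyme of histidine breakdown, had 4.60 and 4.09 TPM in K823R and 5.36 and 4.51 TPM in WT, which overlap. Leaving out WT replicate 2 gave a list median of 0.035, leaving out K823R replicate 1 gave 0.059 and leaving out WT replicate 1 gave 0.16.

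Downstream of the receptors, the genes of the Gq arm of the H1 receptor were mostly a little higher in K823R without a call. Of 20 genes 14 were tested, 13 were higher and 1 lower, 0 passed or had an unadjusted p below 0.05 in limma, and the median log2 difference was 0.10. Over all genes tested 57.4% were higher in K823R. The 13 higher genes include Trpv1 itself, whose groups overlapped. The groups did not overlap for 4 of the 14, as for 34.0% of all genes tested. Plcb3, the phospholipase C isoform known to serve H1 receptor signalling in itch neurons, had 208.3 and 203.8 TPM in the K823R libraries, against 183.5 and 183.9 TPM in the WT libraries. The groups did not overlap, and the log2 difference was 0.16 (SE 0.064, 95% interval -0.0024 to 0.33, limma unadjusted p = 0.0522, adjusted p = 0.918). The G protein genes Gnaq and Gna11 differed by 0.011 and 0.0084 on the log2 scale. Pla2g4a, a phospholipase A2 that frees arachidonic acid, had 1.53 and 1.39 TPM in K823R, against 0.44 and 1.24 TPM in WT, and passed the filter of 1 TPM only through the K823R libraries. Prkcb, a protein kinase C gene, had 76.09 and 69.41 TPM in K823R and 70.57 and 61.72 TPM in WT, which overlap. Leaving out K823R replicate 1 gave a list median of 0.038 and leaving out WT replicate 2 gave 0.027, so its size rested on those libraries.

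The arms of the other receptors had smaller medians. In the Gs arm of the H2 receptor 15 of 16 genes were tested, 12 were higher and 3 lower, with a median log2 difference of 0.037. The adenylyl cyclase gene Adcy3 had 7.98 and 7.67 TPM in K823R, against 6.81 and 7.22 TPM in WT, and Adcy5 and the protein kinase A subunit gene Prkar1b had groups that overlapped. In the Gi/o arm of the H3 and H4 receptors 21 of 23 genes were tested, 14 were higher and 7 lower, with a median of 0.047. Gnai2, a Gi alpha subunit, had 217.6 and 225.6 TPM in K823R, against 205.9 and 199.9 TPM in WT. The G protein gamma subunit gene Gng2 had 190.8 and 191.7 TPM in K823R, against 243.7 and 203.1 TPM in WT, and Gng10, another gamma subunit gene, had groups that overlapped. In both arms 0 genes passed or had an unadjusted p below 0.05 in limma. Leaving out a K823R library gave a Gs median of -0.035 (replicate 1) or 0.13 (replicate 2), and leaving out a WT library gave 0.081 (replicate 1) or -0.0039 (replicate 2). The Gi/o median was 0.0067 or 0.057 with the first or second K823R library left out, and 0.081 or 0.016 with the first or second WT library left out.

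**Figure D4:**
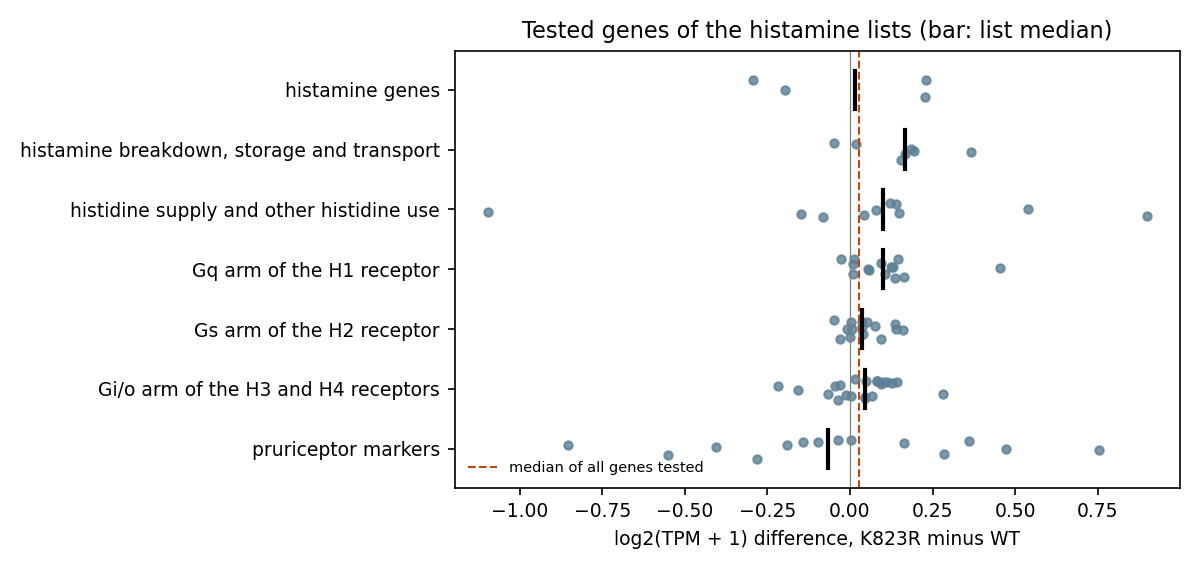
Differences in log2(TPM + 1), K823R minus WT (horizontal axis), of the tested genes in each list; points are genes, black bars are list medians and the dashed line is the median of all genes tested, 0.026. List medians run from -0.065 for the pruriceptor markers to 0.17 for the breakdown, storage and transport genes.

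Markers of itch-sensing neurons, which include the cells known to respond to histamine, were split in direction. Of 15 names 14 were in the table and tested, 6 were higher and 8 lower in K823R, 0 passed or had an unadjusted p below 0.05 in limma, and the median log2 difference was -0.065. Apart from Plcb3, which is on this list too, the smallest p belonged to the leukotriene receptor gene Cysltr2, with 16.30 and 13.63 TPM in K823R, against 12.44 and 8.78 TPM in WT. Next came the receptor gene Mrgprb4, with 9.38 and 9.22 TPM in K823R, against 12.44 and 10.66 TPM in WT. Leaving out WT replicate 1 gave a list median of 0.069, leaving out K823R replicate 2 gave 0.011 and leaving out K823R replicate 1 gave -0.11, so its sign rested on single libraries.

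Markers of mast cells and basophils, the main stores of histamine outside the brain, were scarce. Of 14 markers 5 were tested, 3 were higher and 2 lower in K823R, and 0 passed the test or had an unadjusted p below 0.05 in limma. Tpsb2, one of the 3 higher, passed the filter of 1 TPM only through the K823R libraries. The 14 summed to 57.0 and 57.2 TPM in K823R and to 55.6 and 53.9 TPM in WT, and most of this came from Kit and Rab27b. Kit was at 21.54 to 22.17 TPM over the 4 libraries, with overlap. Rab27b was lower in both K823R libraries, with 24.48 and 24.34 TPM, against 29.80 and 25.13 TPM in WT. Both genes are known from neurons as well. Gata2, the third gene tested and higher in K823R, had 5.16 and 2.76 TPM, against 1.81 and 2.01 TPM in WT. Among mast cell granule genes, Cpa3 had 0.92 and 1.22 TPM in K823R, against 0.55 and 0.40 TPM in WT, and Tpsb2 had 1.93 and 1.54 TPM in K823R, against 0.60 and 0.92 TPM in WT. Mcpt4 had 1.21 and 3.64 TPM in K823R, against 0.52 and 1.69 TPM in WT, and Cma1 had 0.87 and 1.08 TPM in K823R, against 0.36 and 0.84 TPM in WT. Cpa3 and Cma1, below the filter, were not tested, and Mcpt4 overlapped between the groups. Ms4a2, Mrgprb2 and Cd200r3 overlapped too, at 0.65 TPM or less. Fcer1a and Tpsab1 were higher in both K823R libraries, at 0.30 TPM or less. For Hdc, unlike Cpa3 and Tpsb2, the WT values enclosed the K823R values. The basophil genes Mcpt8 and Prss34 were listed at 0 in all 4 libraries.

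Except for satellite glia, marker lists of the other cell types held mostly genes higher in K823R, as were 57.4% of all genes tested. Their part in the receptor values was not tested. Of the tested markers 8 of 9 were higher for myelinating Schwann cells, 9 of 9 for fibroblasts and meninges, and 6 of 9 for pericytes and smooth muscle. Of 3 tested pituitary and hypothalamus markers (Gh, Prl and Pomc) 3 were higher, but Gh and Prl passed the filter of 1 TPM only through the K823R libraries. Gh had 17.08 and 12.03 TPM in K823R, against 0.25 and 1.15 TPM in WT. Prl had 3.05 and 3.56 TPM in K823R, against 0 and 0.11 TPM in WT, and Pomc overlapped. The hypothalamic genes Hcrt, Pmch, Avp and Oxt fell below the filter and were not tested. Of the 9 satellite glia markers 4 were higher and 5 lower in K823R, and they summed to 11311 and 12575 TPM in K823R, against 11346 and 11300 TPM in WT. Of the 10 oligodendrocyte and astrocyte markers 9 were tested and 9 were higher in K823R. In limma 0 of them passed the threshold and 2 (Cspg5 and Mag) had an unadjusted p below 0.05, as did 4.76% of all genes. Their defining genes Mog and Gfap had 11.94 and 17.97 TPM and 69.32 and 71.14 TPM in K823R, against 0 and 9.59 TPM and 3.72 and 60.26 TPM in WT. The 10 macrophage markers summed to 151.3 and 194.6 TPM in K823R, against 100.8 and 152.8 TPM in WT, which overlap. Of these, 9 were higher, none was at 0, 0 passed and 2 (C1qa and C1qc) had an unadjusted p below 0.05 in limma. The 10 endothelial markers, from cells known to carry H1 receptors, summed to 291.7 and 290.8 TPM in K823R, against 290.2 and 263.3 TPM in WT, with 8 higher, none at 0 and 0 at an unadjusted p below 0.05 in limma. WT replicate 1 had the lowest sums for the oligodendrocyte and astrocyte markers and for the macrophage markers. The same held for myelinating Schwann cells, fibroblasts and meninges, pericytes and smooth muscle, and pituitary and hypothalamus. The Schwann cell markers summed to 14503 and 17264 TPM in K823R, against 11778 and 14628 TPM in WT. The fibroblast and meningeal markers summed to 2880 and 913 TPM in K823R, against 354 and 1086 TPM in WT. WT replicate 1 was not lowest for satellite glia or endothelium, and was highest for sensory neurons. The groups of the tested histamine genes did not overlap, so leaving out WT replicate 1 could not reverse a direction. Its part in their size was not tested beyond the values here. Without WT replicate 1 the log2 difference was 0.35 for Hrh1, 0.24 for Hrh2, -0.20 for Hrh3 and -0.19 for Hnmt.

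Among genes at a similar level, the profiles nearest to those of the histamine genes were found by the Euclidean distance between log2(TPM + 1) values centred on each gene's mean, over the 4 libraries. For Hrh1 the nearest of 1927 candidates within 2-fold of its mean were Cep162 (distance 0.043), Serpine3 (0.051) and Ccdc138 (0.054). Cep162 had 2.24 and 2.41 TPM in K823R, against 2.19 and 1.65 TPM in WT. The nearest to Hrh2 was Lsmem2 (distance 0.036), the nearest to Hrh3 was Pthlh (0.030) and the nearest to Hnmt was Wsb1 (0.018). Pthlh, which encodes parathyroid hormone-related protein, had 3.84 and 3.34 TPM in K823R, against 4.93 and 4.28 TPM in WT. With 4 libraries many profiles lie close to any gene by coincidence of values, so the distances only describe these libraries.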

How the data were processed

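Messenger RNA was sequenced from 2 K823R and 2 WT trigeminal ganglion libraries, grouped by sample title. The deposited values are TPM made by the authors. HISAT2, RSEM, edgeR, fastp 0.19.5 and the build GRCm38.p6 are listed in the submitters' processing notes, with no role for each. Strand setting and annotation release: not given in the sources used here. TPM keeps no depth, so no counting interval is given.

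The 15390 genes whose mean reached 1 TPM were tested with limma 3.58.1 in R 4.3.3 on log2(TPM + 1) with a variance trend, two-sided, Benjamini-Hochberg adjusted, threshold 0.05. This scale understates changes of low genes. The histamine genes and the lists were chosen with earlier results of these data known. Named genes were the histamine genes, Trpv1, the 3 smallest p-values of each list (all with an unadjusted p below 0.05, had there been any) and the nearest profiles; others were added after their values were seen. Some list genes are not reported here. BLAST 2.17.0 found 0 transcripts of other genes that matched one of the histamine genes at 95% identity over 90% of its length. The fit was tested on simulated data. The alternatives set were a pseudocount of 0.1 TPM, other filters, scalings and variance models, a replicate block, and each library left out.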

Additional observations from a re-analysis of the deposited data

How the results depend on the processing

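Over the 12 alternatives, the 4 tested histamine genes kept their direction, and none passed the threshold in limma with all 4 libraries in the fit. Most alternatives could not reverse a direction. The other filters, the fit without a variance trend and the replicate block leave the difference unchanged. Leaving out a library cannot reverse groups that do not overlap. Log2 differences ranged from 0.11 to 0.35 for Hrh1, from 0.17 to 0.41 for Hrh2, from -0.39 to -0.20 for Hrh3 and from -0.23 to -0.17 for Hnmt, with the lowest adjusted p at 0.663. Hnmt had an unadjusted p of 0.0461 with quantile normalization and 0.0495 with median-of-ratios scaling. Hdc, tested only with a filter at 0.1 TPM or no filter, had adjusted p values of 0.999 and 1, and quantile normalization was not run for it or for Hrh4. The count of genes past the threshold, 1 of 15390, was 0 with no filter, 0 without a variance trend, 0 with the replicate block and 0 without each library in turn, with 1210, 739, 916 and 574 to 1111 genes at an unadjusted p below 0.05 in limma. The cause was not tested. The labels do not say whether replicate numbers pair animals. The replicate differences of the genotypes correlated at 0.050 over genes. This cannot decide it, because each genotype gives only a single such difference per gene. With the replicate block Hrh1 differed by 0.23 with an adjusted p of 0.834 and Hnmt by -0.20 with 0.748.

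None of the 6 pathway and pruriceptor lists held a gene past the threshold under any alternative; the cell type marker lists were not examined there. With single libraries left out, list medians ranged from 0.090 to 0.22 for breakdown, storage and transport, from 0.035 to 0.16 for histidine supply, from 0.027 to 0.11 for the Gq arm, from -0.035 to 0.13 for the Gs arm, and from -0.11 to 0.069 for the pruriceptor markers. At 1 to 5 TPM the receptor genes had median SEs, over genes within 2-fold of their level, of 0.257 for Hrh1, 0.271 for Hrh2 and 0.186 for Hrh3, which limits the differences this design can show.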
